A study of Danio rerio with 6 samples.

Results

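Long open regions of zebrafish embryos at 50% epiboly (5.5 hpf) were examined in 6 peak lists from ATAC-seq, 3 of control embryos and 3 of embryos exposed to an inhibitor of Ezh2. Overlapping peaks of the 6 lists (1 base or more) were merged into regions. A region was called long when at least 1 of its peaks in a single list spanned 500 bases or more. Chromosomes 1 to 25 were used, without chromosome 4 from base 27000000 on. This gave 285 long regions among 81947 regions on these chromosomes (0.348%) and 85003 regions in all. The long regions together cover 170221 bases. Since length chose them, their lengths and the number of lists in which they were long are given as a description without a test.

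In ATAC-seq the transposase Tn5 cuts and tags DNA that is not wrapped in nucleosomes, so that sequenced fragments pile up where chromatin is open. A typical accessible site at a promoter or enhancer is about as wide as the gap left when a nucleosome is displaced, whereas a longer stretch of accessible DNA has room for several such gaps side by side. Ezh2 is the catalytic subunit of Polycomb repressive complex PRC2, which methylates histone H3 at lysine 27, and broad domains of that mark lie over repressed developmental genes in vertebrate embryos.

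Embryos of the AB wild type strain were maintained from about the 2-cell stage to 50% epiboly in control solution with 0.05% DMSO or in 5 μM PF-06726304 acetate (Ezh2i), with 150 embryos per exposure. Each exposure has 3 replicates of pooled whole embryos without the chorion and yolk, so a region open in few cells and a region weakly open in many cannot be told apart. The libraries held 5894731 to 6877909 fragments after the authors' filters, and the lists held 46833 to 55200 peaks on the chromosomes used. The height of a peak is the pileup deposited by the authors, which is the number of fragments over its highest base, the summit. Positions are those of GRCz11, counted from 1. No annotation or sequence of this build was used here, so the regions are given by position and their genes were not analysed.

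The longest peak of a long region spanned 500 to 978 bases, with a median of 553 bases. It was under 550 bases in 138 regions, 600 bases or more in 79 and 700 bases or more in 23, so the number of long regions fell with length above the minimum. Of the 4 regions just inside it, chr6:55032329-55032828 had a longest peak of 495, 495 and 495 bases in controls 1, 2 and 3 against 500, 493 and 499 in Ezh2i samples 1, 2 and 3. The other regions just inside, on chromosomes 7, 13 and 14, reached 500 bases in 1 list and were as short as 176, 329 and 296 bases in another. Among the 4 regions just outside, chr2:58256503-58257001 had a longest peak of 128, 137 and 123 bases in controls against 499, 438 and 172 in Ezh2i samples. The other regions just outside, on chromosomes 10, 14 and 18, also reached 499 bases in a single list. The 32 regions with a longest peak of 500 to 509 bases had a median height of 51.2 fragments, and the 39 regions at 490 to 499 bases had one of 39.2 fragments.

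The longest peak of all was found at chr16:25921072-25922082. It spanned 431, 953 and 919 bases in controls 1, 2 and 3, and 471, 978 and 477 bases in Ezh2i samples 1, 2 and 3. Control 1, Ezh2i 1 and Ezh2i 3 had 2 peaks each there, and the other lists had 1. The heights were 147, 179 and 164 fragments in controls against 107, 203 and 105 in Ezh2i samples, with summits within 7 bases of each other. The lists thus placed the summit alike and differed in whether the stretch was split.

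The long region at chr12:22559569-22560407 was called as 1 peak in every list. Its peak spanned 826, 671 and 614 bases in controls against 710, 691 and 821 in Ezh2i samples, so it passed the minimum in all 6 lists. At chr6:8420812-8421715 the longest peak spanned 409, 853 and 875 bases in controls against 846, 853 and 489 in Ezh2i samples, and the 2 lists with the short values had split the region. At chr7:68753795-68754677 it spanned 432, 440 and 444 bases in controls against 882, 415 and 766 in Ezh2i samples. Only Ezh2i 1 and Ezh2i 3 had called that region as a single peak. The remaining regions among the 8 longest were long in fewer lists than they were short in, or in as many. The peak of 936 bases at chr14:14032-15002 was matched by 384, 331 and 553 bases in controls and by 252 and 252 bases in Ezh2i samples 2 and 3. The peak of 828 bases at chr6:1868787-1869711 occurred in Ezh2i 1 alone, with 228 to 272 bases in the other 5 lists. Here 3 of those lists had a single short peak, so part of the stretch was without a peak in them. At chr3:45787570-45788444 the lengths were 339, 582 and 247 bases in controls against 196, 875 and 554 in Ezh2i samples. At chr13:52172186-52172987 they were 543, 169 and 229 bases in controls against 802, 172 and 747 in Ezh2i samples. On chromosomes 3, 13 and 14 the same stretch was thus read as a single long peak in some lists and as several shorter ones in others.

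**Figure D1:**
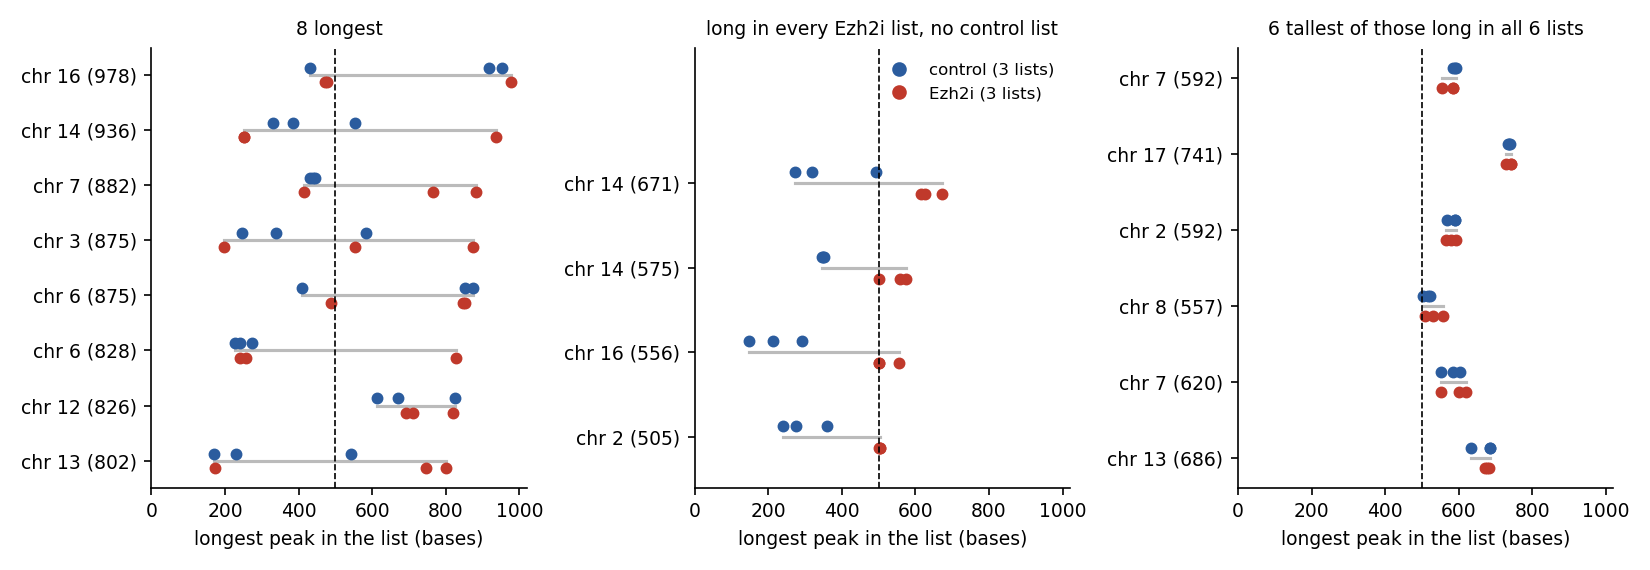
Length in bases of the longest peak in each list (horizontal axis) for the 8 long regions with the longest peak, the 4 regions long in every Ezh2i list and no control list, and the 6 tallest of the 35 regions long in all 6 lists. Each row is a region, named by its chromosome and its longest peak, each point is a list (control above, Ezh2i below), and the dashed line is the minimum of 500 bases. Of the 8 longest regions, those other than the one on chromosome 12 fall on both sides of the minimum, with 431 to 978 bases at the first, whereas the tallest recurrent regions differ little from list to list.

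Splitting was common among the long regions. In 140 of the 285 at least 1 list had several peaks, and the other 145 had a single peak in every list that had one there. Split members were lower, with a median height of 35.2 fragments against 61.8 fragments for unsplit members. They were long in a median of 1 list against 3, and the longest length of a region was a median of 2.52 times its shortest in split members and 1.24 times in unsplit members. Splitting shortens the longest peak of a list, so the contrasts in lists and in length follow in part from it. The gaps between the peaks of a split region ran from 76 to 408 bases, with a median of 120 bases over 398 gaps. In each list the smallest gap between any neighbouring peaks was 1 base more than the mean fragment size in the header of that list (75 to 79 bases), so no list holds peaks closer to each other than that. A long region could therefore be 1 peak or several according to whether the signal between its parts stayed under the cutoff of the peak caller for more bases than that size.

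The longest peak of chr14:14032-15002, in Ezh2i 1, lay over 12 separate peaks of the other 5 lists, which was the highest number among the long regions. Its heights were 28, 36 and 31 fragments in controls against 33, 43 and 30 in Ezh2i samples. The peak of 624 bases in Ezh2i 2 at chr12:13965602-13966245 lay over 11 peaks of the other lists, whose longest peaks spanned 358, 346 and 189 bases in controls against 314 and 361 in Ezh2i samples 1 and 3. The peak of 733 bases in Ezh2i 2 at chr2:40087215-40087984 and that of 875 bases at chr3:45787570-45788444, given above, also lay over 11 peaks. At chr2:40087215 the summits of the tallest peaks were up to 491 bases apart, so the lists did not share a main summit. Over all long regions the summits of the lists lay within a median of 71 bases, under 100 bases in 171 regions and over 200 bases in 81.

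Almost all long regions were open in every sample, although few were long in every sample. Of the 285, 279 (97.9%) had a peak in all 6 lists, 5 had one in 5 lists and 1 had one in 4 lists. The 6 members without a peak in some list lacked it in 1 or 2 control lists and in no Ezh2i list, and each was long in 1 Ezh2i list alone. The rule thus required a peak in that Ezh2i list, so nothing about Ezh2i is read from which lists lacked one. These 6 members were low, as at chr12:46173292-46173795, where the height was 9 fragments in control 1 and 9, 9 and 6 fragments in Ezh2i samples 1, 2 and 3. A long peak was found in a single list at 121 regions, in 2 lists at 41, in 3 at 43, in 4 at 22, in 5 at 23 and in all 6 at 35. The median height rose from 39.5 fragments in regions long in 1 list to 70.2 fragments in regions long in all 6. Across the 285 regions the rank correlation of mean height with the number of lists in which a region was long was 0.28, and with the longest peak it was -0.03. Both values describe regions read from the same 6 libraries.

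The 35 regions long in all 6 lists differed little in length between lists, as the choice of lists that all reach 500 bases requires in large part. In 34 of them every list had 1 peak, and the longest of the 6 lengths exceeded the shortest by a median factor of 1.09, at most 1.36. At chr17:39941158-39941898 the peak spanned 738, 733 and 739 bases in controls against 741, 741 and 730 in Ezh2i samples. The summits lay within 7 bases, and the heights were 148, 174 and 147 fragments in controls against 143, 199 and 112 in Ezh2i samples. At chr7:53011247-53011840 the peak spanned 585, 590 and 592 bases in controls against 554, 586 and 585 in Ezh2i samples. Its heights were 157, 156 and 190 fragments in controls against 122, 191 and 122 in Ezh2i samples, so that the samples differed more in height than in length. This region also had the highest local background of all long regions, with 12.7 fragments.

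**Figure D2:**
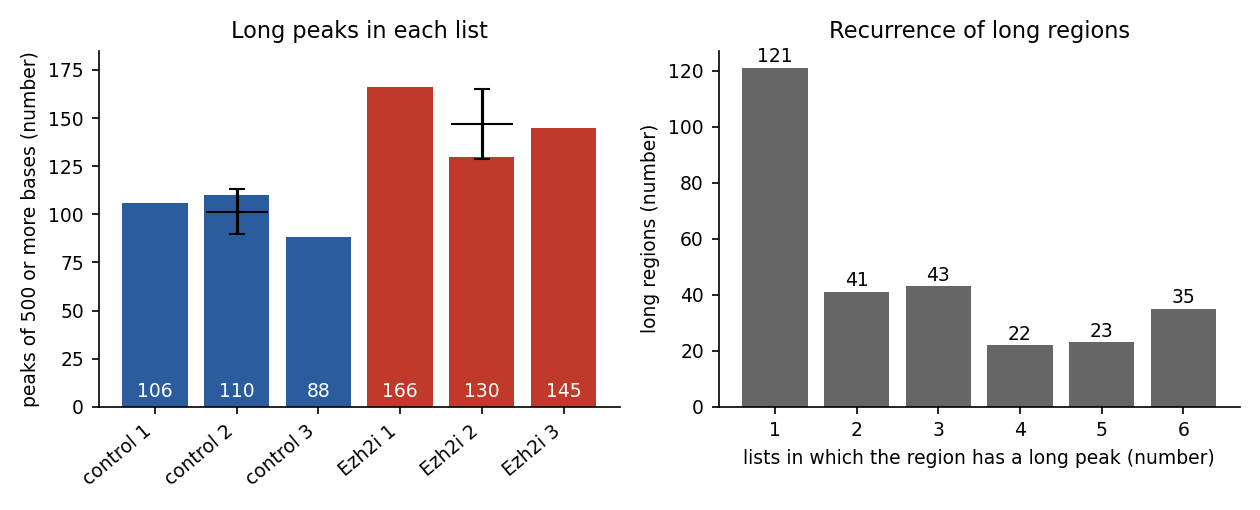
Left, number of peaks of 500 or more bases in each list (bars), with the mean and SD of each exposure in black. Right, number of long regions by the number of lists in which they had such a peak. The control lists hold 88 to 110 long peaks and the Ezh2i lists 130 to 166, and 121 of the 285 regions are long in 1 list.

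Long regions continued a gradient over regions of increasing length. Regions were placed in classes by their longest peak, from under 200 bases to 500 or more. The share of regions with a peak in all 6 lists was 22.6% under 200 bases, 78.5% at 200 to 299, 91.3% at 300 to 399, 97.0% at 400 to 499 and 97.9% at 500 or more. Among regions with a peak in all 6 lists the median height rose along the same classes from 21.2 through 29.0, 34.3 and 37.8 to 47.3 fragments. The share split in at least 1 list rose from 0.0207% to 49.1%. The classes rest on the longest peak of any list, which tends to be longer where more lists have a peak. A region can be split only where peaks of other lists bridge its gap. Part of the rises in recurrence and splitting is therefore set by the classing. Height and length were read from the same pileups, so the rise in height is not independent of the classing either. By height, long regions were the tallest class at the median. Yet 10% of them were under 21.3 fragments, and 10% of the regions of 300 to 399 bases were above 92.0 fragments. The mean height of a long region ran from 8.25 to 199.7 fragments.

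The local background, derived from the deposited pileup and fold enrichment, rose along the classes as well, from a median of 0.659 to 1.85 fragments. It is taken from the 10000 bases around a peak, which include the region itself, and across the 285 long regions its rank correlation with height was 0.84. The fold enrichment over that background was closer between the classes, with medians of 12.2, 15.3, 15.8, 15.7 and 16.5. In the long regions it ran from 6.59 to 36.2.

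**Figure D3:**
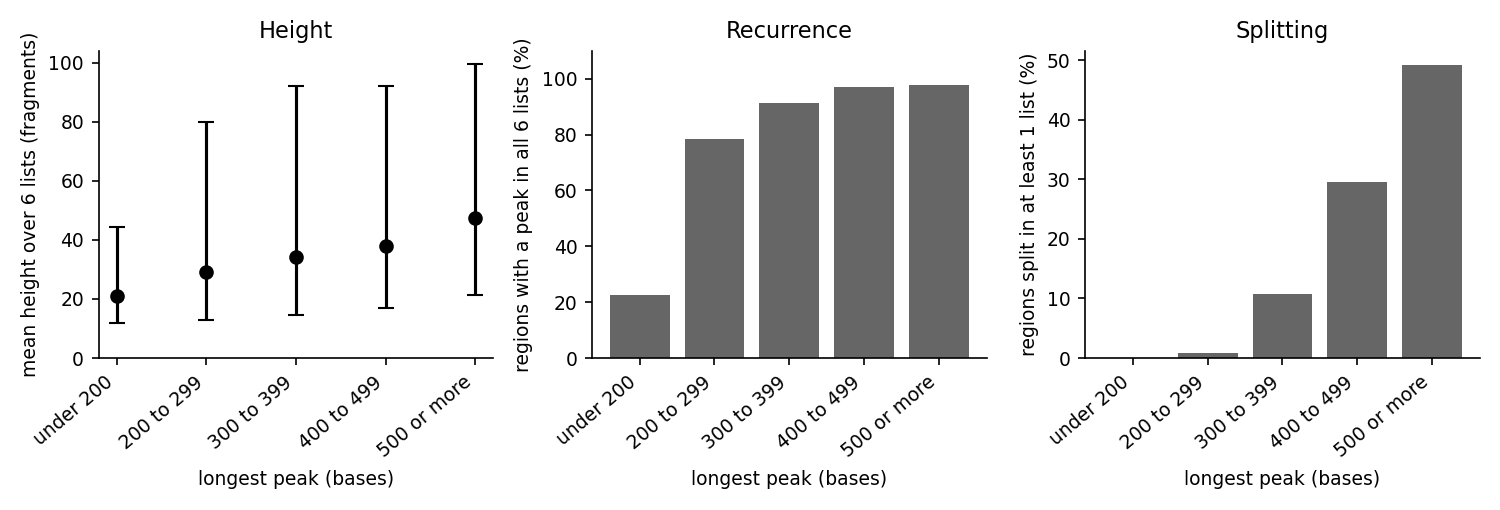
Regions grouped by the length of their longest peak in any list. Left, mean height over the 6 lists in fragments for regions with a peak in all 6 (points, medians; bars, from the 10th to the 90th percentile of regions). Middle, share of regions with a peak in all 6 lists. Right, share of those regions split into several peaks in at least 1 list. All 3 measures are highest in the class of 500 or more bases, with a median height of 47.3 fragments. Part of the rise in the middle and right panels is set by the classing. The heights in the left panel come from the same pileups as the lengths and are not independent of the classing.

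The tallest long region was chr8:1266166-1266833. Its heights were 195, 223 and 172 fragments in controls against 218, 173 and 217 in Ezh2i samples. It was long in Ezh2i 3 alone, where 1 peak of 636 bases took the place of 2 peaks in each of the other lists. At chr1:54971967-54972706 the heights were 210, 189 and 188 fragments in controls against 205, 170 and 186 in Ezh2i samples, and the peak was long in Ezh2i 2 and Ezh2i 3. At chr7:12081220-12081733 they were 174, 172 and 116 fragments in controls against 197, 163 and 221 in Ezh2i samples, with a long peak in Ezh2i 1 alone. The heights as deposited overlapped between the exposures at each of these regions. At chr7:12081220 the normalized heights did not overlap, and this region is among the non-overlapping ones counted in the height comparison. The other members among the 6 tallest were chr7:53011247-53011840, chr17:39941158-39941898 and chr16:25921072-25922082, described above.

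Long regions were found on all chromosomes used, with 27 on chromosome 7, 20 on chromosome 2 and 3 on chromosome 23. As a share of the regions on a chromosome, this was 0.541% on chromosome 7 and 0.0972% on chromosome 23. Within 1000000 bases of a chromosome end, taken as the start of the sequence or the last base of any region, lay 40 of the 285 (14.0%), against 6.63% of the other regions with a peak in all 6 lists. No test was made of this difference. Long regions lay a median of 1458670 bases from the next long region, but 47 had another within 100000 bases and 10 within 10000 bases. The closest pair was chr9:31326803-31327352 and chr9:31333227-31333907, which lay 5874 bases apart. The tallest of the 5 closest pairs was chr10:39076460-39077051 and chr10:39083897-39084399, with mean heights of 136.8 and 146.2 fragments at a distance of 6845 bases. Other regions were near more often, since 230 of the 285 had some region within 10000 bases.

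Control and Ezh2i samples were first compared by length. There were 106, 110 and 88 long peaks in controls 1, 2 and 3, with a mean of 101.3 ± 11.7 (SD, n = 3). The Ezh2i lists 1, 2 and 3 held 166, 130 and 145 long peaks, with a mean of 147 ± 18.1 (SD, n = 3). The exposures did not overlap, and the mean was 1.45 times higher in Ezh2i samples. The share of long peaks in a list was 0.218%, 0.219% and 0.188% in controls and 0.302%, 0.270% and 0.263% in Ezh2i samples, and did not overlap either. Control 3, the list with the fewest long peaks, had the most fragments (6877909) and the fewest peaks (46833). Ezh2i 2 held more long peaks than any control, with fewer peaks (48205) than controls 1 and 2. Ezh2i 1 and Ezh2i 3 had both the most peaks (54883 and 55200) and the most long peaks (166 and 145). Reducing each list to its 46833 strongest peaks removed no long peak, so the numbers could not change and nothing is read from this. The part of list size or depth in the difference was not tested. Joining peaks of a list less than 100 bases apart, chosen after seeing the data, gave 130, 128 and 104 long peaks in controls and 210, 155 and 181 in Ezh2i samples. With 150 bases in place of 100 there were 218, 241 and 214 in controls and 388, 262 and 324 in Ezh2i samples. Gaps under 100 bases made up 30.7% of those within split long regions, and the part of splitting in the difference was not tested.

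The lengths of the 285 regions, which the rule had used, are given as a description. The median of their longest peak was 464, 478 and 441 bases in controls 1, 2 and 3 and 511, 490 and 503 bases in Ezh2i samples 1, 2 and 3. Their median height did overlap between the exposures, with 45, 47 and 40 fragments in controls against 50, 44 and 51 in Ezh2i samples. The number of members split into several peaks was 68, 68 and 74 in controls and 45, 63 and 66 in Ezh2i samples. The mean length was greater in Ezh2i samples at 215 regions and smaller at 70, with a median log2 difference of 0.11 against 0.05 for the other regions with a peak in all 6 lists. All 3 Ezh2i lengths lay above all 3 control lengths at 38 of the 279 members with a peak in every list (13.6%), where 8.6% of all 30071 regions with a peak in every list did so. All 3 lay below at 1 member (0.358%, against 2.41% of all regions). A region became a member through its longest peak in any list, and more long peaks came from Ezh2i lists. These medians and counts over the members therefore say nothing about Ezh2i by themselves.

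A long peak was found in Ezh2i lists only at 114 regions, of which 92 were long in 1 list, and in control lists only at 35, of which 29 were long in 1 list. The other 136 regions were long in lists of both exposures. No region was long in all 3 control lists and no Ezh2i list, and 4 were long in all 3 Ezh2i lists and no control list. At chr14:10648784-10649454 the longest peak spanned 320, 493 and 272 bases in controls against 671, 625 and 614 in Ezh2i samples. The heights there were 31, 33 and 33 fragments in controls against 30, 43 and 42 in Ezh2i samples. Thus Ezh2i 1 had the lowest height of the 6 samples and the longest peak. At chr16:53799594-53800151 it spanned 293, 212 and 148 bases in controls against 500, 556 and 501 in Ezh2i samples. The heights there were 16, 19 and 12 fragments in controls against 16, 24 and 24 in Ezh2i samples. This was the lowest of the 4 regions, and its shortest control peak was 148 bases. At chr14:31086581-31087197 it spanned 352, 345 and 348 bases in controls against 559, 501 and 575 in Ezh2i samples, while the heights were 74, 76 and 63 fragments in controls against 70, 68 and 67 in Ezh2i samples. At chr2:39675529-39676043 it spanned 241, 276 and 359 bases in controls against 502, 505 and 503 in Ezh2i samples, with heights of 114, 115 and 98 fragments in controls against 101, 99 and 122 in Ezh2i samples. These regions, picked for their lengths, were longer in Ezh2i samples at heights that overlapped between the exposures.

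To read lengths in lists that had not chosen the regions, long regions were taken from the lists of 1 exposure and looked up in the other. There were 171 regions long in a control list and 250 long in an Ezh2i list, with 136 in both sets. The 171 regions chosen in controls had median lengths of 512, 515 and 500 bases in the control lists and of 520, 516 and 520 bases in the Ezh2i lists, which took no part in the choice. The 250 regions chosen in Ezh2i lists had median lengths of 519, 502.5 and 513 bases there and of 470, 481.5 and 442 bases in the control lists. Regions chosen in controls were thus as long in Ezh2i lists, and regions chosen in Ezh2i lists were under the minimum in controls at the median. The sets share these 136 regions, and they rest on the same lists and minimum as the numbers of long peaks given above. They are therefore no separate evidence of a difference and are given without a test.

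Heights were then compared between the exposures with limma on quantile-normalized log2 heights, fitted over all 30071 regions with a peak in every list, 279 of them long. By limma with a Benjamini-Hochberg adjusted p-value under 0.05, 0 of the 279 long regions were called (0% of all 30071 regions), and the smallest adjusted p-value among them was 0.746. Over all 30071 regions the smallest limma adjusted p-value was also 0.746. The lack of calls is therefore not read as an absence of height changes in long regions. At an unadjusted p-value under 0.05 in limma there were 12 long regions higher in Ezh2i samples (4.30%, against 3.19% of all regions) and 3 lower (1.08%, against 3.05%). Normalized heights of all 3 Ezh2i samples lay above those of all 3 controls at 35 long regions (12.5%, against 5.69% of all regions) and below them at 8 (2.87%, against 5.39%). The median SD within an exposure was 0.20 on the log2 scale in long regions and 0.26 in all regions. Its part in these shares was not tested. The log2 differences of the long regions had a median of 0.04, against 0.00 for all regions, and 164 of the 279 (58.8%) were above 0, against 49.8% of all regions. The median normalized height of the long regions in a sample was 5.56, 5.61 and 5.46 in controls 1, 2 and 3 on the log2 scale. It was 5.60, 5.52 and 5.54 in Ezh2i samples 1, 2 and 3, so the exposures overlapped. The SD of these medians was 0.07 among controls, where it was larger than among Ezh2i samples.

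Since length chose the regions and was read from the same libraries as height, the differences are also given by where the regions were long, as a description from which nothing is read about Ezh2i. The 108 regions in the fit that were long in Ezh2i lists only had a median log2 difference of 0.09, with 14 higher and 2 lower without overlap (13% and 1.85%, against 5.69% and 5.39% of all regions). The 35 long in control lists only had a median of -0.06, with 2 higher and 5 lower (5.71% and 14.3%). The 136 regions long in lists of both exposures had a median of 0.03, with 19 higher and 1 lower (14.0% and 0.735%). The 35 regions long in all 6 lists, a subset of these, had a median of 0.01, with 9 higher and 0 lower (25.7% and 0%). Along the length classes the median log2 difference was -0.02, 0.01, 0.01, 0.03 and 0.04, and the share of regions higher without overlap was 4.84%, 6.27%, 6.11%, 8.0% and 12.5%. The median SD within an exposure fell along these classes from 0.28 to 0.20. With heights divided by the fragments of each library in place of quantile normalization, the median was 0.15 for long regions and 0.12 for all regions. With fold enrichment in place of height it was -0.03 for long regions, so the sign of the median depends on the measure.

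**Figure D4:**
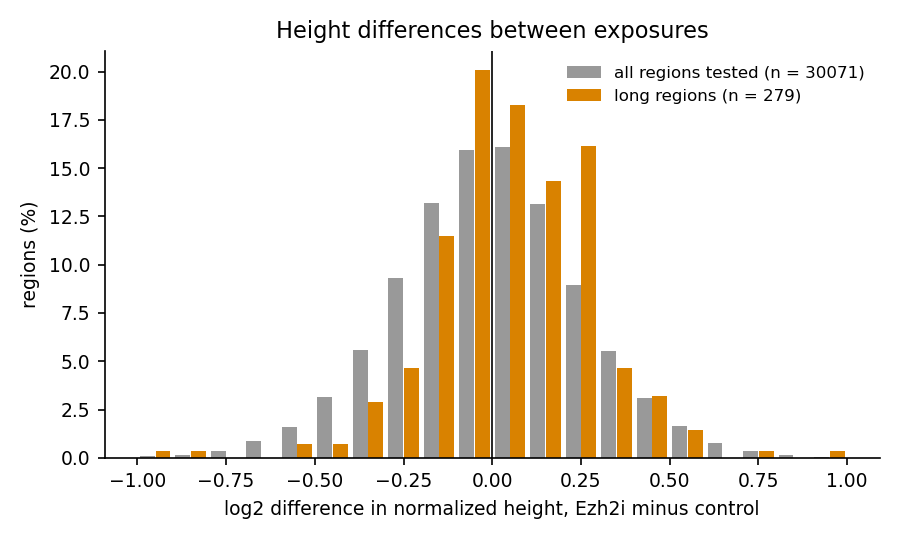
Share of regions (vertical axis, %) by log2 difference in quantile-normalized height, Ezh2i minus control, in steps of 0.1, for the 279 long regions and all 30071 regions with a peak in every list. Differences beyond 1 would be drawn in the outermost step. The long regions have a median of 0.04 and all regions one of 0.00.

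Among the long regions whose normalized heights did not overlap, the largest positive difference was at chr3:10019260-10019769. Controls 1, 2 and 3 had 11, 9 and 10 fragments at the summit against 25, 14 and 24 in Ezh2i samples 1, 2 and 3. This gave a log2 difference of 0.92 ± 0.22 (SE) and a limma adjusted p-value of 0.746. That the normalized heights of all Ezh2i samples lay above those of all controls was required by the choice. This region was long in Ezh2i 3 alone. At chr17:81809-82405 the heights were 12, 13 and 12 fragments in controls against 21, 25 and 25 in Ezh2i samples. The log2 difference of 0.79 ± 0.18 (SE) had a limma adjusted p-value of 0.746 and the smallest unadjusted p-value of the long regions, 0.00124. This region was long in every list except control 3, so both exposures had long peaks there, while their heights were apart by the choice of the region.

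At chr14:52230410-52231025 the heights were 29, 24 and 20 fragments in controls against 43, 36 and 41 in Ezh2i samples, with a log2 difference of 0.59 ± 0.19 (SE). Each list except Ezh2i 1 had 2 peaks there, and the difference became -0.15 when the height of the longest peak took the place of the tallest. At chr7:752268-752827 the heights were 39, 33 and 21 fragments in controls against 52, 42 and 52 in Ezh2i samples, with a log2 difference of 0.56 ± 0.22 (SE). Of these 4 regions, 3 lay within 1000000 bases of a chromosome end, as did none of the 4 with the largest negative differences (0 of 4) and 14.0% of all long regions. All of them were picked as extremes of differences that limma did not call, and a relation to chromosome ends was not tested.

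The largest negative difference was at chr2:3913260-3913906. The heights were 19, 22 and 34 fragments in controls against 11, 15 and 17 in Ezh2i samples, with a log2 difference of -0.93 ± 0.27 (SE) and a limma adjusted p-value of 0.746. The longest peak spanned 122, 230 and 647 bases in controls against 93, 117 and 146 in Ezh2i samples, so the region was long through control 3, where it was also tallest. At chr1:40457876-40458386 the heights were 47, 51 and 37 fragments in controls against 29, 36 and 40 in Ezh2i samples, with a log2 difference of -0.49 ± 0.20 (SE). The heights as deposited overlapped there, and only the normalized ones did not. At chr22:11755883-11756399 they were 13, 16 and 13 fragments in controls against 10, 11 and 14 in Ezh2i samples, which also overlapped as deposited, with a log2 difference of -0.40 ± 0.19 (SE). At chr13:9559414-9559951 they were 21, 18 and 19 fragments in controls against 15, 17 and 17 in Ezh2i samples, with a log2 difference of -0.40 ± 0.19 (SE). This region was long in Ezh2i 1, the sample in which it was lowest.

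**Figure D5:**
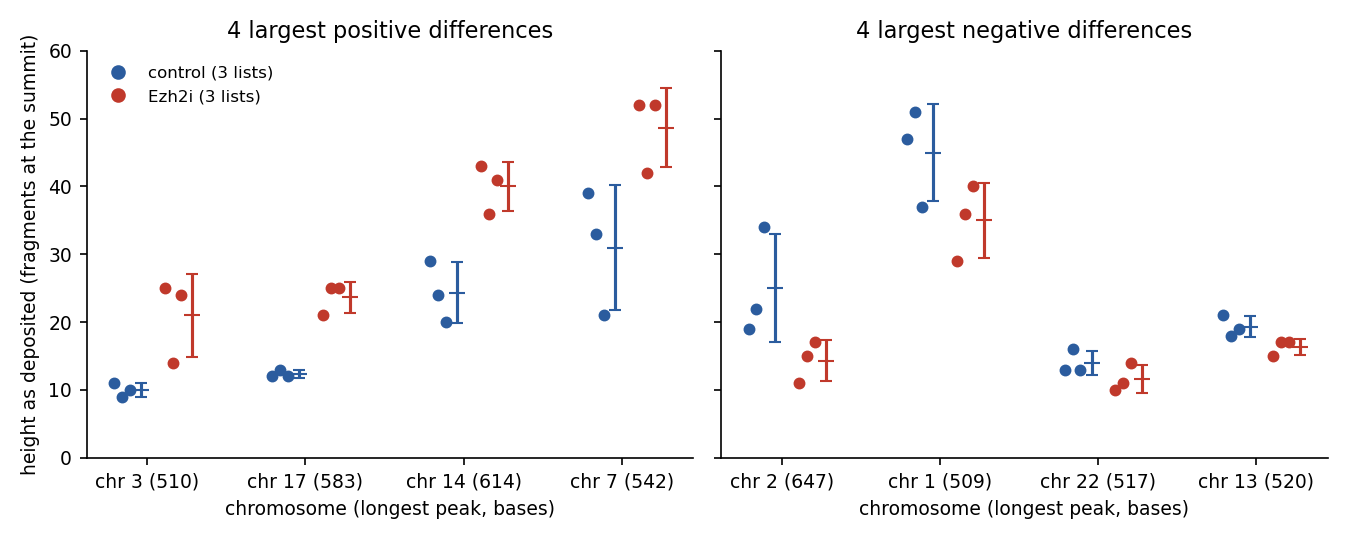
Height as deposited, in fragments at the summit (vertical axis), in each list for the 4 largest positive and the 4 largest negative log2 differences among long regions whose normalized heights do not overlap. Points are lists, and the lines beside them are the mean and SD (n = 3). At the region on chromosome 17 the controls sit at 12 to 13 fragments and the Ezh2i samples at 21 to 25. None of the 8 regions was called by limma at an adjusted p-value of 0.05.

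The members long in all 6 lists were also read by their mean lengths. The mean length was greater in Ezh2i samples at 24 of the 35, and the ratio of the means had a median of 1.01. Regions that were not long but had a peak in all 6 lists had a median log2 difference in mean length of 0.05, which is on another scale than this ratio. The share of all regions with a greater mean length in Ezh2i samples was not taken. No lengthening particular to the 35 members is read from these values. At chr2:11747823-11748507, picked after its values were seen, the peak spanned 603, 634 and 618 bases in controls against 685, 679 and 664 in Ezh2i samples, without overlap. How many of the 35 were longer without overlap was not taken. Of all 30071 regions with a peak in every list, 8.6% were. Across all 285 regions the rank correlation of the log2 ratio of mean lengths with the log2 ratio of mean heights was 0.22, both taken from the same libraries, so a region that was longer in Ezh2i samples was only weakly also taller there.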

How the data were processed

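Per the file headers, each list comes from a run of MACS2 2.1.1.20160309 by the authors on a single library. Fragments were read as pairs, no input library was given, peaks were kept at a q-value of 0.001, and at most 1 duplicate was kept at a position. Before that, per the paper's methods, reads were trimmed and aligned with Bowtie2 to GRCz11. The paper also states that read depths were too low, so the fragment length was raised to take in 1 nucleosome. How that choice bears on the length of peaks was not tested. The deposited signal is the summit pileup, the deposited ratio is the fold enrichment (pileup plus 1 over local background plus 1), and the deposited −log10 p-values and −log10 q-values are those of the pileup under that background. A pileup is the coverage of 1 base and not a read number, and no count model was used. Where a list had several peaks in a region, its longest gave the length and its tallest the height.

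Heights were tested with limma (version 3.58.1, R 4.3.3) with no block for the replicate number, and adjusted by Benjamini-Hochberg over all 30071 regions (threshold 0.05). Nothing in the sources says that the replicates came from separate spawnings, so p-values measure the spread between these samples. Other steps used Python 3.11.15 with pandas 2.3.3, numpy 2.4.6 and matplotlib 3.10.9.

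The members, lists and tests were chosen with earlier results of these data known. The regions named were the 8 with the longest peak, the 6 tallest, the 4 largest differences in each direction without overlap, and the 3 whose longest peak lay over most peaks of other lists (2 of them tied with 1 more region, resolved by position). The rule also admitted regions past the adjusted threshold or with a peak in 1 list only, of which there were none. The pairs of neighbours, the regions of chromosome 17 and 2 given for their lengths and those long in every Ezh2i list and no control list were chosen after their values were seen. Regions on unplaced scaffolds and on chromosome 4 from base 27000000 on (26 with a long peak) were left out.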

Additional observations from a re-analysis of the deposited data

How the results depend on the processing

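The number of long regions is set by the minimum length. It was 285 at 500 bases, 1199 at 400 bases (1166 with a peak in all 6 lists), 79 at 600 bases (79 in all 6) and 164 (164 in all 6) when a long peak was required in 2 lists. Without each sample in turn it lay between 244 and 277 (241 to 275 in all remaining lists). The ratio of long peaks per list between Ezh2i and control, 1.45, was 1.37 at 400 bases and 1.81 at 600 bases. Both alternatives were chosen after seeing the data. Without each sample in turn the ratio lay between 1.36 and 1.53. No alternative to the height comparison called a long region (0 in each of 15, with adjusted p-values of the named regions from 0.375 to 0.999). The 12 long regions higher and 3 lower at an unadjusted p-value under 0.05 became 6 and 5 with fold enrichment, 21 and 6 with a trend in limma, and 6 and 1 with missing peaks at the lowest height, and 1 was lower with the height of the longest peak. Without each sample in turn, 5 to 10 were higher and 2 to 8 lower. The shares of all regions were not taken under these settings or with the replicate block below. Nothing particular to long regions is therefore read from these counts. The median log2 difference of 0.04 was 0.15 under scaling by library size, where that of all regions was 0.12, and 0.03 to 0.06 without each sample in turn. The difference at chr14:52230410 reversed to -0.15 with the height of the longest peak, and the other 103 of 104 alternatives for the 8 regions with the largest differences kept their direction, though not their size. That at chr1:40457876 went from -0.49 to -0.10 with the height of the longest peak. With fold enrichment those at chr2:3913260, chr17:81809, chr14:52230410, chr7:752268 and chr22:11755883 became -0.44, 0.41, 0.35, 0.30 and -0.18. Scaling by library size gave -0.25 at chr13:9559414, and leaving out control 3 gave 0.34 at chr7:752268. The cause of these shifts was not tested. Same-numbered samples did not deviate together (r of 0.10, -0.03 and -0.12), and a replicate block gave 9 higher and 3 lower, 0 past the adjusted threshold and a median of 0.04. The heights rest on few fragments in the lowest long regions of the fit (10 at the lowest mean), which limits what 3 samples against 3 can show there.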
